A study of Homo sapiens with 8 samples.

Results

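The canonical histone cluster genes encode the linker histone H1 and the core histones H2A, H2B, H3 and H4 around which DNA is wound. Members were the entries of the deposited tables with an older histone cluster symbol (HIST1 to HIST4, by chromosomal cluster), leaving out pseudogenes by symbol, with a mean of at least 3 normalized counts in vector cells in the SLNCR1 table. A normalized count is the reads of a gene divided by a size factor that puts libraries of unequal depth on 1 scale. The rule took 54 members of 56638 entries. They were 54 of the 75 histone cluster entries that are not pseudogenes by symbol, and 14 further entries were pseudogenes. The members comprised 4 genes of class H1, 11 of H2A, 20 of H2B, 9 of H3 and 10 of H4. By cluster, 43 carried HIST1 symbols, 8 HIST2, 2 HIST3 and 1 HIST4. RefSeq lists 3 of them (HIST2H2BA, HIST2H2BC and HIST2H2BD) as pseudogenes although their older symbols do not show it.

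RNA was sequenced from A375 cells, an established human melanoma line with an activated BRAF kinase. All groups were grown in medium with 10% serum, transfected with a pcDNA3.1(-) plasmid 24 h after seeding and harvested 48 h after transfection. The plasmid was empty (vector), or held full-length SLNCR1, a long noncoding RNA, only its conserved region (conserved region), or SLNCR1 lacking that region (delta-conserved), with 2 libraries in each of the 4 groups. The expression is thus transient and in 1 line, and whether the 2 libraries of a group were separate cultures is not labelled, so that p-values measure the spread of these samples only, possibly a technical one. The libraries were poly(A)-selected and did not keep the strand of origin.

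Most mRNAs of these genes are made during DNA replication and, unlike other mRNAs, end in a short stem and loop instead of a poly(A) tail. The stem-loop-binding protein SLBP holds that hairpin, the U7 small nuclear RNA particle guides the cut just after it, and the mRNA is degraded when replication stops. Several of the genes can also be read through the hairpin to a polyadenylation site further on, and poly(A) selection favours those longer transcripts. Reads here are therefore the part of histone mRNA that this selection kept, and a total amount per cell was not measured. In bulk RNA, fewer cells making an mRNA and less mRNA per cell cannot be told apart.

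The hairpin was looked for in the GENCODE release 29 transcripts of the members as 6 base pairs that open with GG and close with CC around a loop of 4 bases starting with TT. It was found in at least 1 transcript of 26 of the 54 members. Of all 206694 transcripts of that annotation, counted singly and not by gene, 0.693% held it. The forms are shown because the replication-dependent transcript end lies just after the hairpin, though longer transcripts hold it too. Each is given for 1 member, on GRCh38, with both arms of the stem in capitals and the loop in lower case.
HIST2H2BE (chr1:149886188-149886203, minus strand): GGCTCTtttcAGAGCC
HIST1H4H (chr6:26285131-26285146, minus strand): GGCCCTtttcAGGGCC
HIST1H2BD (chr6:26158587-26158602, plus strand): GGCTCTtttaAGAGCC
HIST1H2AG (chr6:27133515-27133530, plus strand): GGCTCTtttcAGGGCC
HIST1H4I (chr6:27139654-27139669, plus strand): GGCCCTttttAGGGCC
The first form occurred in 13 members, the form shown for HIST1H4H in 5, that for HIST1H2BD in 4, that for HIST1H2AG in 3 and that for HIST1H4I in 1. The annotated transcript with the hairpin ran 1729 bases past it in HIST2H2BE, 1761 in HIST1H2AG, 1655 in HIST1H4H and 1128 in HIST1H2AC. In HIST1H2BD a transcript of 496 bases stopped 39 bases after it, but that gene has 2 annotated transcripts, the longest of 789 bases. Transcripts without the hairpin were not used to class a member that held it in another. Altogether 20 members had a transcript running at least 100 bases past the hairpin, 6 had one that stopped nearer, and in 28 the annotated transcripts held no hairpin, in many cases because the model stops near the coding sequence.

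Promoters are shown for the 3 members with the lowest adjusted p in the authors' SLNCR1 table, since members of all classes had lower values together. Each is the 250 bases before the RefSeq start on GRCh38.p14, and capitals mark CCAAT (bound by NF-Y), TATAAA (the TATA box) and ATTTGCAT (the octamer bound by POU2F1) on either strand.
HIST1H3D (chr6:26197287-26197536, minus strand): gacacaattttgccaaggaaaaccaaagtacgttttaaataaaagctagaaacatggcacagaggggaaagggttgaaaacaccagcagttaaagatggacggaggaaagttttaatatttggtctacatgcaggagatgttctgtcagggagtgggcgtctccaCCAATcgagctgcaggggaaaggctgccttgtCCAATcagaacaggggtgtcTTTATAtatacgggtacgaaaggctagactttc
HIST2H2BE (chr1:149886683-149886932, minus strand): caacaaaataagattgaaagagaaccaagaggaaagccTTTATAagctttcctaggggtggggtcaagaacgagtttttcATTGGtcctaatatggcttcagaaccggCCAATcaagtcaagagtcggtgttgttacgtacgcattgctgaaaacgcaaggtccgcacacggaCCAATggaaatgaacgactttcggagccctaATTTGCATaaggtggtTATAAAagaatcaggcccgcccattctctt
HIST1H2AG (chr6:27132793-27133042, plus strand): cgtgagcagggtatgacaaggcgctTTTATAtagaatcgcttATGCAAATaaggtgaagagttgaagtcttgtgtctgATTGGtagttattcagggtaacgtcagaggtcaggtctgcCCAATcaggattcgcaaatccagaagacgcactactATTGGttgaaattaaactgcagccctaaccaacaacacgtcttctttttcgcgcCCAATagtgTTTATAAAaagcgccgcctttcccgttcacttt
The HIST1H3D promoter held CCAAT 2 times and TATAAA once, that of HIST2H2BE held CCAAT 3 times, TATAAA 2 times and the octamer once, and that of HIST1H2AG held CCAAT 4 times, TATAAA 3 times (2 of them overlapping on opposite strands) and the octamer once. In RefSeq windows from 250 bases before to 50 after the start, available for 48 members, CCAAT was present in 85.4% (34.6% of all 35116 windows), TATAAA in 64.6% (11.5%) and ATTTGCAT in 41.7% (1.77%). CCAAT was in every H1, H2A, H2B and H3 window and in 22.2% of the H4 windows. The octamer was in 70% of H2A and 76.5% of H2B windows and in 0% of the H1, H3 and H4 windows. The windows of HIST2H2BE and HIST1H2AG reach the starts of HIST2H2AC and HIST1H2BJ, 236 and 248 bases away on the opposite strand. Their motifs farthest from the start, such as TATAAA at -212 and -225 bases, lie near those starts and may belong to either gene. Windows of such pairs overlap, so that 1 motif can be counted for both genes. A match of letters describes the window and does not show binding.

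The libraries held 8222868 to 12015394 reads assigned to genes, and those with SLNCR1 and delta-conserved were shallower than those of the other groups. SLNCR1 is a RefSeq synonym of LINC00673, whose span lies within LINC00511 of GENCODE 29, and LINC00511 was higher than both vector libraries (617 and 623 normalized counts) in all 6 construct libraries (859 to 1147). It passed in the authors' deposited tables with SLNCR1 (adjusted p = 0.00559) and the conserved region (adjusted p = 5.89e-15), not with delta-conserved (adjusted p = 0.145). The melanocyte lineage regulators SOX10, MITF and PAX3 were present in every library, whereas DCT and TYR, late pigmentation genes, were at 0 to 5.02 normalized counts. Marker lists of other cell types held reads too, with 66.5 to 77.1 RPM (reads per 1000000 reads assigned to genes) on 6 keratinocyte genes, mostly KRT10 and KRT14, 65.1 to 85.9 on 6 fibroblast genes, mostly PDGFRB and COL1A1, 6.18 to 9.13 on 6 leukocyte genes and 3.36 to 5.29 on 5 endothelial genes. Of these genes DSG3 and PECAM1 were at 0 in every library, and the part of other cell types in the histone values was not tested. In every group, a denotes the library with more reads and b the one with fewer.

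Histone reads made up less of the SLNCR1 and delta-conserved libraries than of the vector and conserved-region libraries. Members took 308 and 302.6 RPM in vector libraries a and b, from 3701 and 3426 reads. They took 185.5 and 203.5 with SLNCR1, 198 and 196.4 with delta-conserved, and 331.3 and 330.6 with the conserved region. The 4 SLNCR1 and delta-conserved libraries lay below both vector libraries and the 2 conserved-region libraries lay above them, with no overlap between these sets. Exact (Clopper-Pearson) 95% intervals, which cover counting error only, reached at most 213 for the former 4 libraries and went no lower than 292.6 for vector. The mean was 0.637 times that of vector with SLNCR1, 0.646 times with delta-conserved and 1.08 times with the conserved region. An exact two-sided permutation test of 2 libraries against 2 cannot go below p = 0.333, so no test of the share was made. The 4 libraries with the higher shares were also the 4 deepest (10280144 to 12015394 reads, against 8222868 to 10097194), so depth separated the same sets, and its part in the shares was not tested. The libraries nearest in depth across the sets, SLNCR1 library a (10097194 reads) and conserved-region library b (10280144 reads), had 185.5 and 330.6 RPM.

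**Figure D1:**
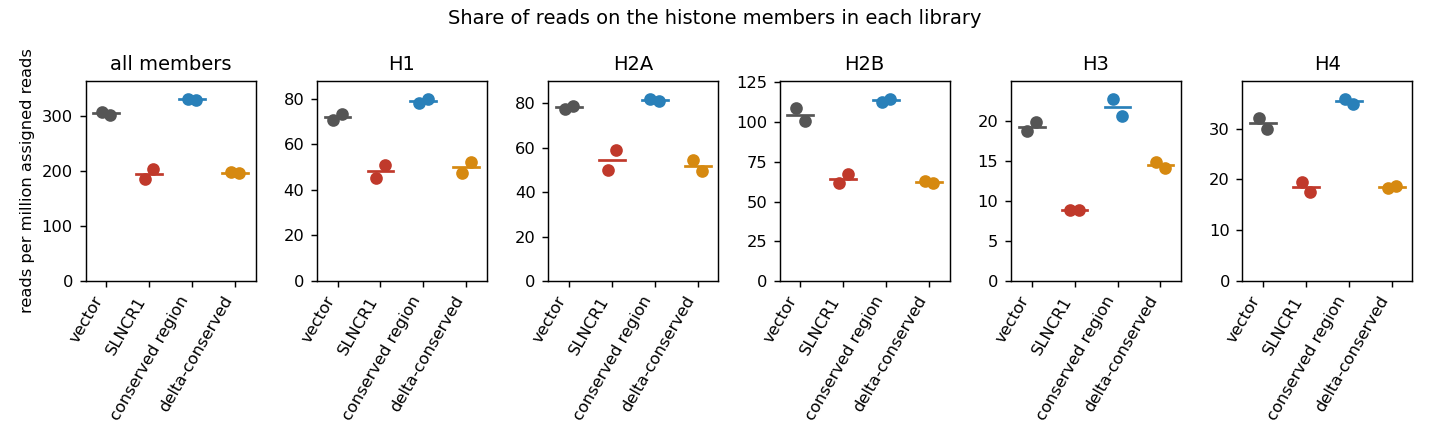
Reads on the histone members, in RPM (reads per 1000000 reads assigned to genes), for all 54 members and for each class. Points are the 2 libraries of a group and bars their mean. For all members the SLNCR1 and delta-conserved libraries sit between 185.5 and 203.5, below the vector libraries at 302.6 and 308.

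All classes shared this order of groups. H1 went from 70.7 and 73.4 RPM in vector to 45.4 and 50.8 with SLNCR1 and 47.4 and 52.4 with delta-conserved. H2A reads went from 77.7 and 78.9 to 50.01 and 59.2, and to 54.5 and 49.4. H2B reads went from 108.8 and 100.5 to 61.7 and 67.0, and to 63.0 and 61.8. H3 reads went from 18.6 and 19.8 to 8.91 and 8.91 with SLNCR1, and to 14.8 and 14.1 with delta-conserved, and these 2 constructs did not overlap in H3, whereas their libraries overlapped in the other 4 classes. H4 reads went from 32.1 and 30.03 to 19.5 and 17.6, and to 18.3 and 18.7. With the conserved region every class was above both vector libraries in both of its libraries.

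In the authors' deposited tables, 7 of 54 members fell with SLNCR1 at an adjusted p under 0.05 and none rose, where 0.844% of all 33548 genes with a p-value fell and 0.0388% rose. Among the 20356 genes with a vector mean of at least 3, 1.39% fell. With delta-conserved 8 of 54 fell and none rose, against 1.14% lower and 1.11% higher of 34744 genes. With the conserved region no member passed in either direction, where 0% of 34347 genes were called lower and 0.0175% higher at an adjusted p under 0.05. No member had an unadjusted p under 0.05 with that construct. Unadjusted p-values under 0.05 were found for 20 members with SLNCR1 and 19 with delta-conserved, none of them higher. The share of all genes under that unadjusted limit was not taken for the authors' test, so these 2 counts lack a reference. The comparisons with SLNCR1 and with delta-conserved use the same vector libraries. The members' median log2 fold change was -0.81 with SLNCR1, -0.67 with delta-conserved and 0.15 with the conserved region, beside -0.02, -0.02 and -0.01 for all genes with a vector mean of at least 3. A log2 below 0 was found for 49 of 54 members with SLNCR1, 40 with delta-conserved and 16 with the conserved region. Among all genes with a vector mean of at least 3 it was found for 53.1%, 53.7% and 52.2%, in that order.

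**Figure D2:**
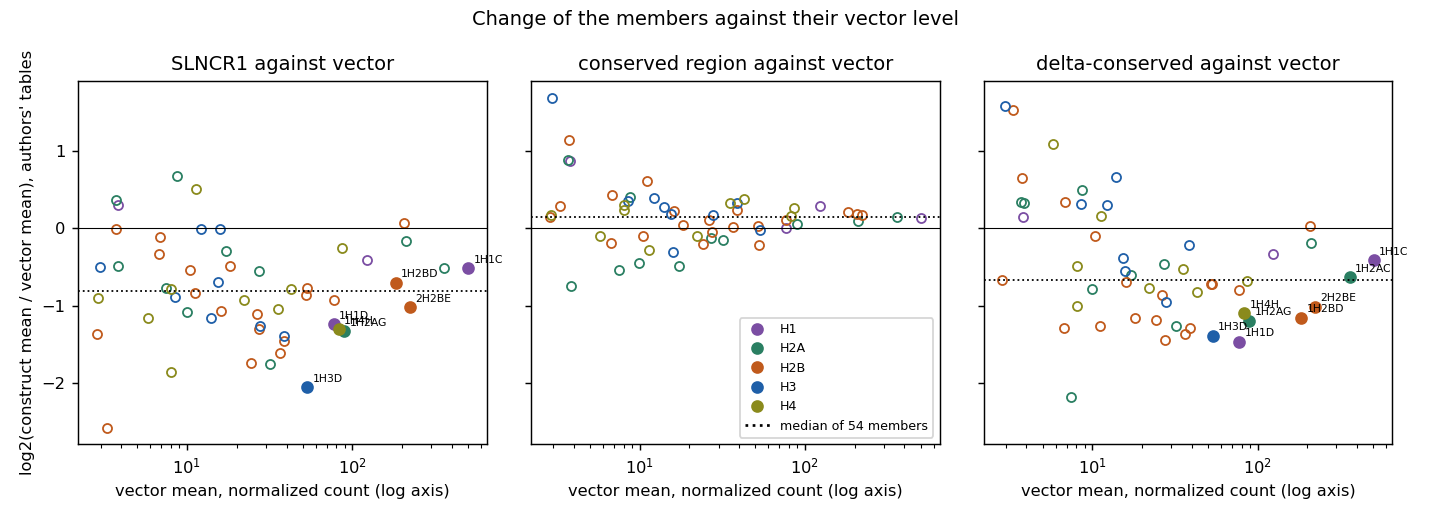
Log2 of construct mean over vector mean in the authors' deposited tables against the mean of the vector libraries (log axis, not corrected for gene length), for each member, coloured by class. Filled points passed at an adjusted p under 0.05 and are named without HIST, and the dotted line is the members' median. HIST1H4J, listed at 0 with delta-conserved, has no point there.

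The linker histones bind the DNA that enters and leaves the nucleosome. HIST1H1C, the member with the most reads, stood at 483 and 524 normalized counts in vector, 328 and 376 with SLNCR1, 369 and 391 with delta-conserved, and 529.9 and 593 with the conserved region. Its SLNCR1 and delta-conserved libraries lay below both vector libraries. In the authors' deposited tables its log2 fell by 0.51 (SLNCR1, adjusted p = 0.0182) and by 0.41 (delta-conserved, adjusted p = 0.0275). HIST1H1D had 70.8 and 83.8 in vector, 28.98 and 36.2 with SLNCR1, 30.9 and 25.1 with delta-conserved, and 85.8 and 71.5 with the conserved region. It fell by 1.24 (adjusted p = 0.00795) and by 1.47 (adjusted p = 0.000841) in those tables, and again no library of these constructs reached the vector range. HIST1H1E had 126 and 121 in vector, 95.9 and 89.9 with SLNCR1 and 78.5 and 118 with delta-conserved, and did not pass (adjusted p = 0.869 and 1). HIST1H1B, the other H1 member, had 2.21 to 7.94 normalized counts over the 8 libraries.

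H2A pairs with H2B in the nucleosome. HIST1H2AC had 369 and 352 normalized counts in vector, 243 and 262 with SLNCR1, 224 and 242 with delta-conserved, and 391.9 and 415 with the conserved region. It fell by a log2 of 0.63 with delta-conserved (adjusted p = 0.000768), and with SLNCR1 the authors' deposited table gave -0.51 with an adjusted p of 0.0569. HIST1H2AG had 94.1 and 83.8 in vector, 32.0 and 38.4 with SLNCR1, 45.3 and 32.6 with delta-conserved, and 99.1 and 88.4 with the conserved region. Its log2 in the authors' deposited tables was -1.34 (adjusted p = 0.000945) and -1.195 (adjusted p = 0.00369). HIST3H2A stood apart among the members with many reads. Its vector libraries, at 173 and 247, enclosed all but 1 of the others (162 and 213 with SLNCR1, 198 and 173 with delta-conserved, 225 and 229 with the conserved region), and its adjusted p was 1 in all 3 authors' deposited tables.

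Among 20 H2B members 2 fell with each of SLNCR1 and delta-conserved in the authors' deposited tables, and the class median was -0.90 and -0.83. HIST2H2BE had 245 and 199 normalized counts in vector, 101 and 117 with SLNCR1, 101 and 120.4 with delta-conserved, and 247 and 261 with the conserved region. Its log2 fell by 1.02 (SLNCR1, adjusted p = 0.000881) and by 1.01 (delta-conserved, adjusted p = 0.00121). HIST1H2BD had 180.1 and 186 in vector, 118 and 106 with SLNCR1, 81.8 and 82.8 with delta-conserved, and 218 and 211 with the conserved region. It fell by 0.71 (adjusted p = 0.0389) and 1.16 (adjusted p = 3.1e-06), and the delta-conserved libraries lay below those with SLNCR1. HIST1H2BK did not follow: its 8 libraries lay between 196 and 247 normalized counts, with 200.2 and 213 in vector, and its log2 was 0.07 with SLNCR1 and 0.02 with delta-conserved (adjusted p = 1 in both). Of the other H2B members, HIST1H2BN (44.2 and 33.5 in vector, 13.0 and 15.3 with SLNCR1, 15.5 and 16.3 with delta-conserved) and HIST2H2BF (37.0 and 36.2, 13.0 and 10.96, and 13.3 and 15.05) missed the threshold in the authors' deposited tables, with adjusted p from 0.0575 to 0.0904. In GENCODE 29 the spans of HIST1H2BD, HIST1H2BN and HIST2H2BF overlap other genes, whose reads may not be separable without strand.

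H3 and H4 form the core tetramer of the nucleosome. HIST1H3D had the largest fall of the members that passed with SLNCR1, from 50.7 and 56.5 normalized counts in vector to 17.0 and 8.77, a log2 of -2.05 in the authors' deposited table (adjusted p = 0.000232). It had 22.1 and 18.8 with delta-conserved, a log2 of -1.39 (adjusted p = 0.0162), and 49.5 and 57.6 with the conserved region. In GENCODE 29 this gene overlaps another annotated transcript unit, so reads of the 2 cannot be told apart without strand. HIST1H4H had 85.2 and 80.3 in vector, 34.0 and 32.9 with SLNCR1, 37.6 and 40.1 with delta-conserved, and 88.5 and 98.3 with the conserved region. It fell by 1.30 (adjusted p = 0.00268) and 1.09 (adjusted p = 0.0112). HIST1H3H, with 32.2 and 44.99 in vector, 14.0 and 15.3 with SLNCR1 and 27.6 and 38.9 with delta-conserved, lay below the vector range with SLNCR1 and overlapped it with delta-conserved (adjusted p = 0.13 and 1).

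With delta-conserved, members with few reads did not share the lower values of the others. Of the 15 members with a vector mean of at least 50, 14 had a log2 below 0 with each of SLNCR1 and delta-conserved, with medians of -0.78 and -0.72. Of the 23 with a vector mean of 10 to 50, 22 and 20 were below 0, with medians of -1.04 and -0.78. Of the 16 with a vector mean of 3 to 10, 13 were below 0 with SLNCR1 (median -0.64), but 6 with delta-conserved (median 0.33), and the conserved region had a median of 0.30 there. These last members had few reads, for example HIST1H3F with 3 and 4 reads in vector, 2 and 2 with SLNCR1, 6 and 9 with delta-conserved and 13 and 8 with the conserved region, and none of the 16 passed. HIST1H4J had 5 and 2 reads in vector and 0 in both delta-conserved libraries. A minimum set on the vector mean favours genes that were high in vector by chance, and with the minimum set on the mean over all 8 libraries instead the median over all members was -0.79 with SLNCR1, -0.62 with delta-conserved and 0.16 with the conserved region. The low-read members were not taken separately under that rule.

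Members were also compared by the annotated end of their transcripts, without a test because the classes differ in level (median vector mean 39.8, 11.3 and 12.0). The 20 members with a transcript running past the hairpin had a median log2 of -1.06 with SLNCR1, -0.85 with delta-conserved and 0.17 with the conserved region, and 20, 19 and 2 of them were below 0. The 6 that end at the hairpin had medians of -0.63, -0.62 and 0.03. The 28 with no hairpin in the annotated transcripts had medians of -0.66, -0.45 and 0.14, with 24, 17 and 11 below 0. Passing members were found in each of these sets, 3, 1 and 3 with SLNCR1 and 4, 1 and 3 with delta-conserved. The member that passed among those ending at the hairpin was HIST1H2BD, which also has a longer annotated transcript.

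**Figure D3:**
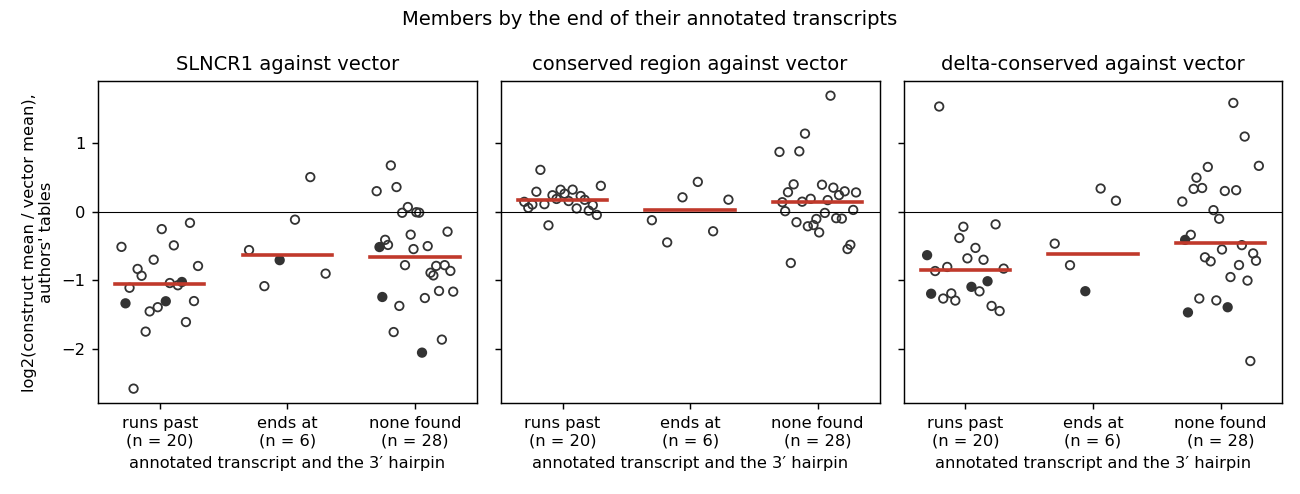
Log2 of construct mean over vector mean in the authors' deposited tables for members whose GENCODE 29 transcript runs at least 100 bases past the hairpin, stops nearer, or holds no hairpin. Points are members, filled where the adjusted p was under 0.05, and red bars are medians (with SLNCR1 -1.06, -0.63 and -0.66). HIST1H4J has no point with delta-conserved.

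The reads of single libraries, recovered from the authors' group means, allowed a limma fit over all 8 libraries on log2(normalized count + 1), a scale that understates changes of low genes. It covered 16058 genes with a mean of at least 10 over all libraries, 36 of them members. Against vector, 20 of 36 members were lower with SLNCR1 and none higher (7.41% and 3.94% of all genes), and 14 were lower with delta-conserved and none higher (5.26% and 5.19%). With the conserved region no member passed, where 0% of genes were lower and 0.00623% higher. An unadjusted p under 0.05 was reached by 0 members and by 874 of the 16058 genes with the conserved region. With SLNCR1 it was reached by 25 members and 4583 genes, and with delta-conserved by 22 members and 3784 genes. By class, 2 of 3 H1, 3 of 7 H2A, 10 of 13 H2B, 3 of 7 H3 and 2 of 6 H4 members were lower with SLNCR1. The H2B members tested include the 3 that RefSeq lists as pseudogenes, of which only HIST2H2BA passed (adjusted p = 0.0302 by limma). Both SLNCR1 libraries lay below both vector libraries for 29 of the 36 members and above them for 1 (25.4% and 27.2% of all genes). With delta-conserved these counts were 25 and 2 (26% and 27.7%), and with the conserved region 3 and 11 (16.7% and 25%). Of the 20 members lower with SLNCR1, 7 passed in all 4 fits that left out 1 of the libraries compared, and 11 passed in total without vector library b and 9 without vector library a. Of the 14 with delta-conserved, 5 passed in all 4 fits, and 5 members passed without vector library a, 7 without b, 8 without delta-conserved library a and 6 without delta-conserved library b. No called member changed sign in any of these fits. The share of all genes that passed was not taken for these fits, so the lower member counts cannot be set against it.

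**Figure D4:**
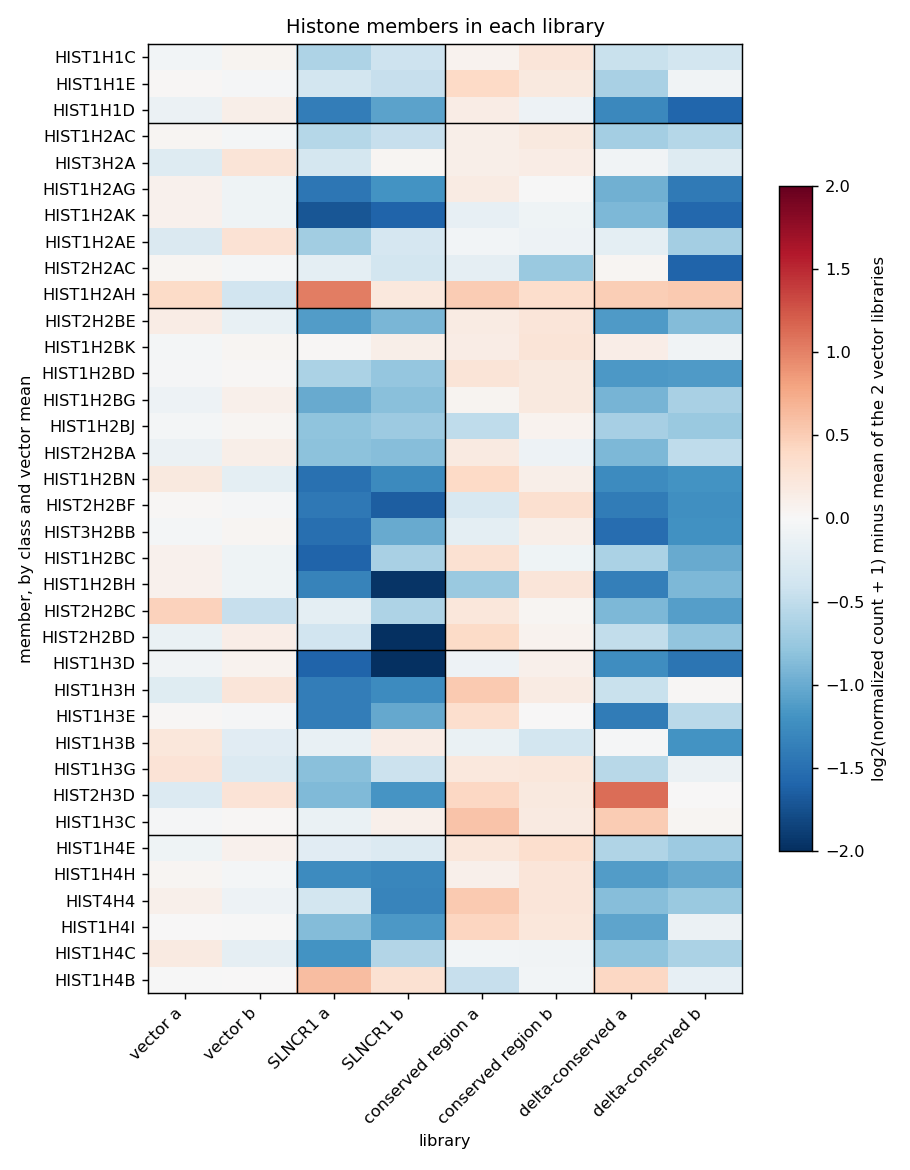
Each of the 36 members in the limma fit (rows, by class) in each library (columns). Colour is log2(normalized count + 1) minus the mean of the 2 vector libraries, and values beyond 2 on either side take the end colour. The SLNCR1 and delta-conserved columns are mostly blue, with HIST1H2BK and HIST3H2A near white and HIST1H2AH red.

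The constructs were then compared with each other by the same fit. Between SLNCR1 and delta-conserved no member passed, and no gene of 16058 did (0% lower and 0% higher), while 1284 genes and 5 members had an unadjusted p under 0.05. The median member difference was -0.12, with 24 of 36 lower with SLNCR1. For HIST1H1C the difference (SLNCR1 minus delta-conserved) was -0.11 with a 95% interval of -0.31 to 0.08, for HIST1H2AC 0.11 (-0.09 to 0.31) and for HIST2H2BE -0.02 (-0.31 to 0.28). For HIST1H2AG it was -0.13 (-0.57 to 0.31), for HIST1H4H -0.21 (-0.61 to 0.19) and for HIST1H1D 0.21 (-0.25 to 0.67). These intervals allow differences of either sign. Single-gene intervals that did not include 0 were those of HIST1H2BD (0.44, interval 0.17 to 0.71, adjusted p = 0.481 by limma), HIST1H3D (-0.69, interval -1.31 to -0.07, adjusted p = 0.567 by limma), HIST1H3H, HIST1H4E and HIST2H3D, and none passed after adjustment. Without SLNCR1 library a, 3 of the members tested were lower with SLNCR1, HIST1H3D, HIST1H3H and HIST2H3D (adjusted p = 0.02, 0.0376 and 0.0146 by limma), where 6.78% of all genes were lower and 0.853% higher. That call rests on SLNCR1 library b alone, and no member passed in any other fit that left out 1 library.

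The conserved region differed from both other constructs. Against delta-conserved, 16 of 36 members were higher with the conserved region and none lower, where 5.79% of all genes were higher and 1.11% lower. Their median difference was 0.88, and 33 members were above 0. HIST1H2BD differed by 1.37 (95% interval 1.102 to 1.64, adjusted p = 1.68e-06 by limma), HIST2H2BE by 1.199 (0.90 to 1.49) and HIST1H2AC by 0.79 (0.59 to 0.99). Between SLNCR1 and the conserved region, 23 of 36 members were lower with SLNCR1 and none higher, against 9.47% lower and 2.06% higher of all genes, with a median of -0.99. HIST1H3D differed by -2.04 (95% interval -2.65 to -1.42) and HIST1H1C by -0.67 (-0.87 to -0.48). HIST1H2BK and HIST3H2A again passed in none of the 6 comparisons. Against vector, the conserved region gave 0.16 for HIST1H1C (95% interval -0.04 to 0.35), 0.16 for HIST1H2AC (-0.04 to 0.36) and 0.23 for HIST1H2BD (-0.04 to 0.50), so that these intervals include both 0 and rises up to their upper bounds.

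**Figure D5:**
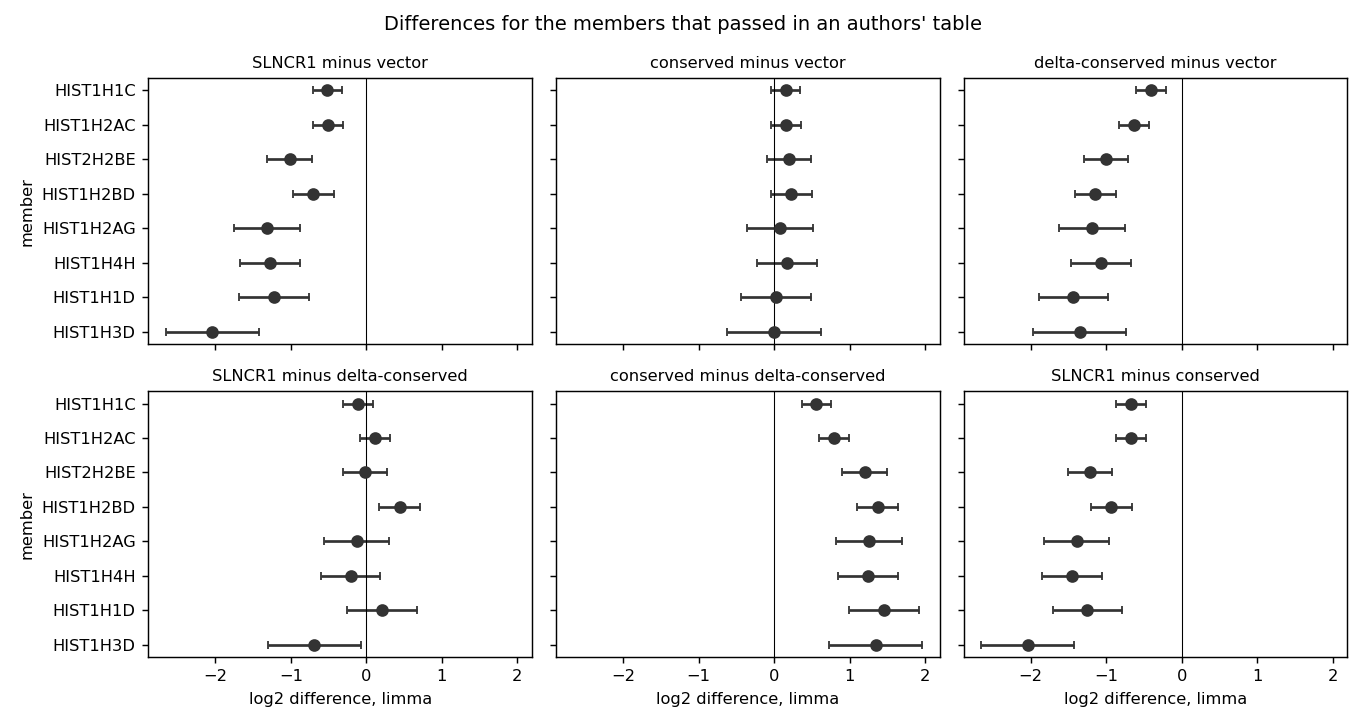
Limma log2 differences with 95% intervals for the 8 members that passed in an authors' table, in 6 comparisons of groups (first named minus second named). All 8 intervals lie below 0 for SLNCR1 and delta-conserved against vector, and 6 of 8 include 0 for SLNCR1 against delta-conserved.

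Of the members, 8 pairs start on opposite strands and point away from each other, with RefSeq starts at most 1000 bases apart. Limma covered both partners in 6 of these pairs. With SLNCR1, HIST1H2AK and HIST1H2BN (194 bases apart) had limma differences of -1.66 and -1.39, HIST1H2BJ and HIST1H2AG (248 bases) -0.76 and -1.32, and HIST1H2BC and HIST1H2AC (246 bases) -1.13 and -0.51. Both partners passed by limma in these 3 pairs. The spans of HIST1H2AK and HIST1H2BN overlap in GENCODE 29, so their reads may not be separable without strand. HIST1H2BG and HIST1H2AE (233 bases) had -0.92 and -0.52, HIST3H2BB and HIST3H2A (230 bases) -1.25 and -0.15, and HIST2H2BE and HIST2H2AC (236 bases) -1.02 and -0.28, and in these the first named passed. Leaving out 1 library at a time, HIST2H2BE and HIST1H2AG passed in all 4 fits, HIST1H2BC and HIST3H2BB in 1 and HIST1H2BJ in 0. Differences between partners were not tested.

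None of the listed genes for replacement variants, histones mostly made outside replication from polyadenylated mRNAs, passed as lower in the authors' tables or by limma. Of 12 measured replacement variants, none passed with SLNCR1 or the conserved region in the authors' deposited tables and 1 rose with delta-conserved, H2AFZ (818 and 908 normalized counts in vector, 1031 and 1105 with delta-conserved, adjusted p = 0.039). Their medians were 0.17, 0.08 and 0.18 with SLNCR1, the conserved region and delta-conserved. By limma 3 and 4 of 11 were higher with SLNCR1 and delta-conserved. H2AFX, the variant phosphorylated at DNA breaks, had 1441 and 1680 in vector, 1773 and 1941 with SLNCR1 and 1877 and 1867 with delta-conserved. H3F3B, a gene for H3.3, had 1943 and 2126, 2262 and 2505, and 2370 and 2568.

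Genes that make and process histone mRNA showed small differences. Of 16 measured, none passed with SLNCR1 or the conserved region and 1 fell with delta-conserved, ZNF473, a subunit of the U7 processing complex (570 and 549 normalized counts in vector, 413 and 453 with delta-conserved, adjusted p = 0.0378). With SLNCR1 it had 439 and 423 and was lower by limma, by a difference of -0.38 (adjusted p = 0.0069 by limma), beside -0.37 with delta-conserved. SLBP had 991 and 1035 in vector, 1088 and 1141 with SLNCR1, 1096 and 1119 with delta-conserved and 1039 and 1119 with the conserved region, and did not pass. NPAT, the coactivator of histone gene transcription, had 421 and 359 in vector, 367 and 288 with SLNCR1, 394 and 405 with delta-conserved, and 384 and 357 with the conserved region, and did not pass. SLNCR1 library b was the lowest, and conserved-region library b also lay just below the vector libraries. Of 12 genes of histone mRNA decay, 1 fell with SLNCR1 and with delta-conserved, ZCCHC6, a uridylyltransferase (909 and 837 in vector, 578 and 477 with SLNCR1, 609 and 668 with delta-conserved). SMG1 (2945 and 2760 in vector, 2474 and 1676 with SLNCR1), XRN1 (1277 and 1030, 984 and 701) and DCP2 (1135 and 1046, 949 and 756) passed only by limma with SLNCR1. In each of the 3 genes SLNCR1 library b was the lowest of the 8 libraries.

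No listed cell cycle gene passed as lower with any construct, in the authors' tables or by limma. Of 30 S phase genes none passed in the authors' deposited tables, with medians of 0.11, 0.04 and 0.09 with SLNCR1, the conserved region and delta-conserved, and 3 were higher by limma with each of SLNCR1 and delta-conserved. PCNA, the replication clamp, had 1049 and 1124 normalized counts in vector, 1229 and 1320 with SLNCR1 and 1276 and 1319 with delta-conserved, and RRM2 of nucleotide synthesis had 1881 and 1935, 2241 and 2234, and 2192 and 2346. Of 24 G2 and M phase genes 1 rose with delta-conserved (TOP2A, adjusted p = 0.041), with medians of 0.12, 0.05 and 0.12. Of 18 histone chaperone genes 1 rose with delta-conserved (NAP1L1, adjusted p = 0.00535), with medians of 0.13, 0.05 and 0.11. Their part in the histone values was not tested.

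No other listed RNA made without a poly(A) tail passed as lower, in the authors' tables or by limma. Of 18 listed, 17 had a p-value and none passed in the authors' deposited tables, with medians of 0.11 (SLNCR1), 0.40 (delta-conserved) and 0.13 (conserved region). Together they took 47.8 and 46.5 RPM in vector, 48.9 and 48.3 with SLNCR1, 64.1 and 57.8 with delta-conserved, and 54.7 and 43.2 with the conserved region. By limma RN7SK, RN7SL1 and RN7SL2 were higher with delta-conserved, for example 33.0 and 30.9 normalized counts of RN7SK in vector and 61.9 and 61.4 with delta-conserved.

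Of 20 other genes of the major histone cluster region on chromosome 6, ZNF184, a zinc finger gene, fell with SLNCR1 and delta-conserved. It had 260 and 231 normalized counts in vector, 125 and 126 with SLNCR1, 123 and 133 with delta-conserved, and 259 and 262 with the conserved region. The list's median was -0.11 with SLNCR1, -0.05 with delta-conserved and -0.04 with the conserved region. By limma 3 and 2 of 16 were lower with SLNCR1 and delta-conserved, including BTN2A2, a butyrophilin gene (306 and 303 in vector, 216 and 217 with SLNCR1, 227 and 231 with delta-conserved).

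At the lower edge of the rule, HIST1H2BB and HIST1H4J were just inside with authors' vector means of 3.02 and 3.06, and HIST1H3A and HIST1H2AJ just outside with 2.68 each. Of the 21 entries outside, 6 had no read in any library, among them the copies HIST2H2AA3 and HIST2H2AA4, HIST2H3A and HIST2H3C, and HIST2H4A and HIST2H4B. Each of these pairs is a near-identical duplicate, and reads that fit both may not have been counted, so their values say nothing of expression. One entry outside the rule passed in the opposite direction. HIST1H4L had 0 reads in all vector and SLNCR1 libraries. It had 9 and 7 with delta-conserved (adjusted p = 0.0209 in the authors' deposited table) and 11 and 0 with the conserved region, where it did not pass. Its delta-conserved mean of 9.36 ± 0.824 normalized counts (SD, n = 2) was at least 7.42-fold higher than vector, taking 3 reads over the vector group as the floor. Reads of COL3A1, a fibroblast collagen gene, stood high in the same 3 libraries, at 53.1 normalized counts in conserved-region library a and 50.8 and 45.1 with delta-conserved, against 1.99 to 4.38 in the other 5. What the source of these reads was, and its part in HIST1H4L, was not tested. Among the 14 entries that are pseudogenes by symbol, HIST2H3DP1 had 51 and 38 reads in vector, 10 and 15 with SLNCR1, 12 and 18 with delta-conserved, and 33 and 45 with the conserved region, and HIST1H2APS3 had 27 and 33 in vector, 6 and 7 with SLNCR1, 3 and 10 with delta-conserved, and 37 and 18 with the conserved region.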

How the data were processed

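Per the labels' protocols, poly(A)-selected libraries were made with an NEBNext Ultra kit from A375 cells in 4 groups of 2. Per the submitters' processing notes, reads were handled with STAR, featureCounts and DESeq on hg19. Their versions and the annotation were not given in the sources used here. Each of the 3 deposited tables holds a signal that is the authors' group mean of reads per gene over size factors, as the file headers and values show, and each table was normalized on its own. The fold change is the authors' ratio of construct to vector mean, as deposited, and its log2 was taken here. Each p-value, raw or adjusted, is from the authors' own test, as deposited, and "fell", "rose" and "passed" refer to an adjusted p under 0.05 there unless limma is named.

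Because the mean of 2 libraries sums whole multiples of 2 steps, reads per library were solved from the means, with a single solution for 100% of genes (for the conserved region 99.9806%, with 6 genes left ambiguous). Nothing in the values tells which replicate number a library carries. Recovered reads were scaled by median-of-ratios size factors over 8 libraries, and limma 3.58.1 (R 4.3.3, variance trend, 4 residual and 13.6 prior degrees of freedom, Benjamini-Hochberg adjustment) was run on log2(normalized count + 1). It took 16058 genes, those averaging at least 10 normalized counts. Of the members, 36 entered this fit and 18 were below its minimum. Both steps were tested on simulated data.

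Over the members, libraries a and b of a group differed by a chi-square per degree of freedom of 1.36 in vector, 1.43 with SLNCR1, 1.2 with delta-conserved and 1.02 with the conserved region. All pairs come from different totals and were kept as 2 libraries.

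The members, gene lists and named genes were chosen with earlier results of these data known. Values per library are given for members that passed in an authors' table, the 6 with the highest vector mean, and a few others chosen after their values were seen, as are the pseudogene entries. From each other list, up to 4 genes that passed in an authors' table or by limma could be named, besides SLBP, NPAT, H2AFX, H2AFZ and H3F3B. The melanocyte, keratinocyte, fibroblast and endothelial markers are named outside that rule, after their values were seen. All 54 members were found in GENCODE 29 and in RefSeq (GRCh38.p14) by their older symbols, and 12 overlap another GENCODE gene. Coordinates are those of GRCh38, not of the hg19 tables.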

Additional observations from a re-analysis of the deposited data

How the results depend on the processing

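Of 273 values recomputed under other settings for 24 results, 236 stayed on their side of the limits used and none reversed. Many of the 236 were counts of 0 that stayed 0, such as members higher with SLNCR1. A count of members in a given direction cannot reverse, so the absence of reversals carries information only for the medians and shares. In the authors' deposited tables, members lower with SLNCR1 numbered 11 at an adjusted p under 0.1, and those lower with delta-conserved 5 at 0.01. By limma these counts were 20 and 14. One entry was higher with delta-conserved when all 75 entries were allowed, and also 1 with the minimum of 3 set on the mean over all libraries (an alternative added after seeing the data), HIST1H4L in both cases. With a vector mean of at least 10 (38 members) the median log2 was -0.895 with SLNCR1, -0.75 with delta-conserved and 0.109 with the conserved region. The delta-conserved median was -0.578 over entries with reads in both groups and -0.619 with the minimum over all libraries, and the conserved-region median was 0.171 with size factors over all libraries. The share of reads over vector was 0.673 with delta-conserved and 1.12 with the conserved region on normalized counts.

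With a limma filter at a mean of 50 (12 members tested), 8 members were lower with SLNCR1 and 9 with delta-conserved against vector, 10 were higher with the conserved region than with delta-conserved, and 10 were lower with SLNCR1 than with the conserved region. Fewer members enter that fit. With no filter beyond 1 read the SLNCR1 counts were 13 against vector and 14 against the conserved region, and the cause was not tested. The voom, trimmed-mean, library-total and pseudocount fits stayed within 1.5 times of each count, and no scaling moved the median of all genes by over 0.1.

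Leaving out 1 library (the lone one is then assumed to vary like the others), the medians ran from 0.114 to 0.159 with the conserved region and from -0.737 to -0.588 with delta-conserved, and the shares over vector from 1.07 to 1.09 and from 0.64 to 0.652. Limma counts of lower members ran from 9 to 18 with SLNCR1 and from 5 to 19 with delta-conserved against vector, from 14 to 22 for SLNCR1 against the conserved region and from 0 to 3 for SLNCR1 against delta-conserved, and those higher with the conserved region than with delta-conserved from 9 to 22. Shares of all genes in such fits were taken only for SLNCR1 against delta-conserved without SLNCR1 library a. No paired analysis was possible because the recovered libraries carry no replicate number. Members under 10 normalized counts are limited by depth: a few reads decide their values.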
